A study of Mus musculus with 22 samples.

Results

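The integrated stress response and the unfolded protein response were described through 10 genes, chosen by symbol: the transcription factors *Atf4*, *Atf5*, *Atf6*, *Ddit3*, *Xbp1* and *Cebpb*, the target genes *Trib3* and *Asns*, and the eIF2 phosphatase subunits *Ppp1r15a* and *Ppp1r15b*. All 10 were found among the 23453 gene symbols of the count table, and all 10 had a read in at least 5 of the 22 cells, as did 12719 symbols in all. Each sample was the RNA of 1 mouse astrocyte, amplified and sequenced after its calcium signal had been recorded during EtOH exposure, and the study asked which genes differ between astrocytes with different calcium responses. There were 6 S-type cells (a slow rise and slow decay of calcium), 6 T-type cells (a transient rise), 5 M-type cells (a mixed signal) and 5 NR cells (no response).

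Cells of all 4 types came from primary cultures of cerebral cortex of C57BL/6 pups aged 0 to 1 day, each culture made from 1 pup. All cultures had been shaken and treated with cytosine arabinoside against other cell types, and serum had been withdrawn before imaging. NR cells had been exposed to EtOH as the other cells had, so that no group was free of EtOH. Which pup, culture or collection time a cell belonged to is not given in the labels, and each response type was therefore taken as 1 sample. No test between types was made, and the values below are levels with the spread of cells, with 95% intervals that cover counting error only, since reads of amplified RNA without molecular identifiers are not independent molecules.

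As background, stress kinases that phosphorylate the initiation factor eIF2 lower general protein synthesis while the mRNAs of ATF4, ATF5, CHOP (the product of *Ddit3*) and GADD34 (the product of *Ppp1r15a*) are translated more through upstream reading frames in their leaders, so that mRNA counts do not measure the proteins. ATF4 then acts with C/EBP partners on genes of amino acid synthesis and transport. In the endoplasmic reticulum (ER), IRE1 splices the *Xbp1* mRNA, and ATF6 is cut in the Golgi to release a transcription factor. Counts per gene cannot tell spliced from unspliced *Xbp1*, or cut from uncut ATF6.

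The regulatory sequence of these genes was read from RefSeq promoters (GRCm38.p6, 250 bases before to 50 after the start site), which held 8 of the 10 genes. The core of the C/EBP-ATF response element, TGATGNAA on either strand, lay in the promoters of *Asns* and *Trib3*, 2 of 8, against 4.51% of 27025 genes, and the cyclic AMP response element TGACGTCA lay in that of *Ppp1r15a*, against 2.03% of genes. In the lines below each match is in capitals with the bases around it. *Asns* (chr6:7693214-7693243, minus strand) carried its match from base -23 of the RefSeq start, in a stretch that GENCODE vM21 counts as exon, *Trib3* (chr2:152344028-152344057, minus strand) from base 15 on the opposite strand, and *Ppp1r15a* (chr7:45526262-45526291, minus strand) from base -12.
Asns: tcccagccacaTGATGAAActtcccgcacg
Trib3: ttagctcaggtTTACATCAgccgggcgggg
Ppp1r15a: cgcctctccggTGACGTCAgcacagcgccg

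The unfolded protein response element TGACGTGG (0.714% of genes) and the ER stress response element, CCAAT, any 9 bases, then CCACG (0.137% of genes), were in none of the 8 promoters on either strand. The 100 bases before the RefSeq start are shown for *Atf4* (chr15:80255084-80255183, plus strand) and *Atf5* (chr7:44816659-44816758, minus strand), the factors with the highest levels below, and neither held any of the 4 motifs.
Atf4: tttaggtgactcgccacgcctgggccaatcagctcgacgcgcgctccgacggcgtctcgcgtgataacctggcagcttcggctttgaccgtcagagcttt
Atf5: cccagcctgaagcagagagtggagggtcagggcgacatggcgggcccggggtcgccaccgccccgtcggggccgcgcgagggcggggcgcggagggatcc

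Libraries of the T-type cells ranged from 2937786 to 19279519 reads, those of the S-type cells from 12229280 to 16254761, those of the NR cells from 15057892 to 19930655 and those of the M-type cells from 19030121 to 22131076. A level is the mean over the cells of a type of the count divided by the median-of-ratios size factor of the cell. Size factors lay between 0.923 and 2.31 outside the T-type and between 0.183 and 1.56 within it. The T-type cell J163_18 had the smallest library and factor, and the T-type cell J162_16 had a factor of 0.276 at 12564138 reads with only 6319 genes detected, the fewest of any cell, so results of T-type are also given without them. All 12 astrocyte markers had reads in every type, with a sum of 1402 to 10768 CPM (reads scaled to the library total) per cell. The 12 microglial markers summed to 50.1, 52.9 and 56.0 CPM in the NR cells J186_5, J182_2 and J183_1 and to 7.91 or less in the other 19 cells, with *P2ry12* at 0 in NR. Markers of oligodendrocyte lineage (10 genes, 7 or 8 with reads in each type, *Sox10* at 0 in all types, sums of 34.0 to 3329 CPM), neurons (10 genes, 5 to 9 with reads, *Slc17a7* at 0 in all types, 38.1 to 2076 CPM), endothelium (8 genes, 3 to 5 with reads, *Cldn5* and *Cdh5* at 0 in all types, 0 to 200.0 CPM) and mural cells and fibroblasts (10 genes, 4 to 8 with reads, *Rgs5* at 0 in all types, 31.7 to 7410 CPM) were also present in cells of every type. Their part in the results below was not tested, apart from the values given beside them.

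*Atf4* and *Atf5* were the most abundant of the 10 genes, and *Trib3* was the least. Per kilobase of exon, the mean level over the 22 cells was 3131 normalized counts for *Atf5* and 1271 for *Atf4*, and the median was higher for *Atf4* (1003) than for *Atf5* (713). *Ppp1r15b* (207), *Xbp1* (189), *Asns* (113) and *Atf6* (104) followed by mean level per kilobase, then *Ddit3* (50.5), *Cebpb* (15), *Ppp1r15a* (14.5) and *Trib3* (12.8). Cells held reads of 7 to 10 of the 10 genes, with a median of 9. *Atf4*, *Atf5* and *Atf6* had reads in all 22 cells, *Xbp1*, *Asns* and *Ppp1r15b* in 21, *Ddit3*, *Ppp1r15a* and *Cebpb* in 20, and *Trib3* in 6.

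T-type had the highest level of 7 genes (*Atf4*, *Atf5*, *Ddit3*, *Xbp1*, *Asns*, *Ppp1r15a* and *Ppp1r15b*), S-type of *Trib3*, and NR of *Atf6* and *Cebpb*. Scaled to CPM, T-type was highest for 6 of these 7, and *Ddit3* was highest in NR. Without J162_16, T-type was again highest for 7, with *Trib3* in place of *Ddit3*, which was then highest in S-type. Single cells also set the order for *Xbp1*, highest in M-type without J161_9, and for *Ppp1r15a*, highest in NR without J164_19. The same held for *Cebpb*, highest in T-type without J182_2, and for *Trib3*, highest in T-type without J155_9. M-type was highest for none, and this held with TMM factors and with CPM. For all 10 genes the ranges of cells overlapped between each type and the next in the order of levels, so that no order of neighbouring types exceeded the spread of the cells.

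**Figure D1:**
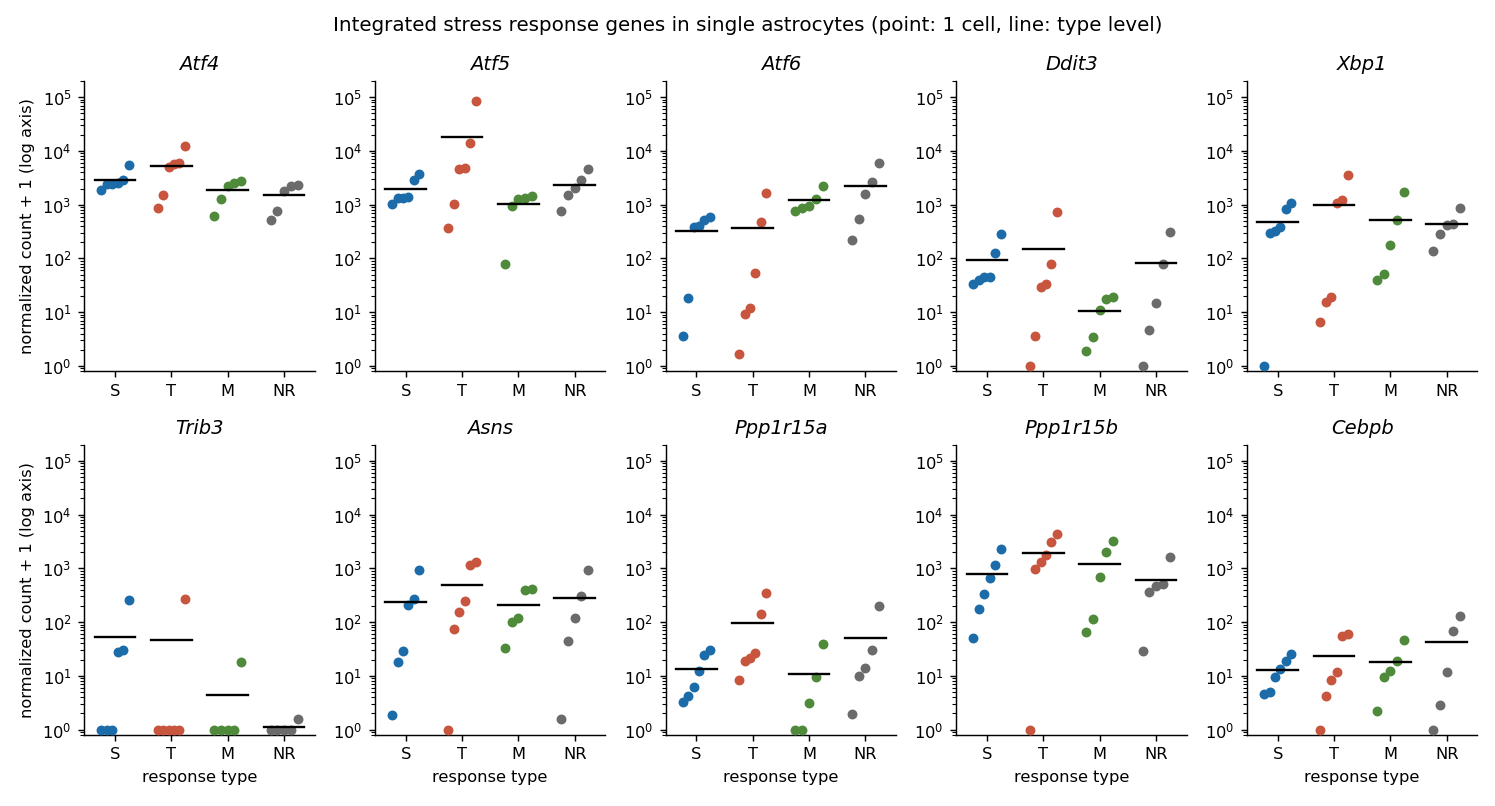
Normalized count plus 1 (log axis) of each of the 10 genes in the 22 cells, by response type (6 cells each of S-type and T-type, 5 each of M-type and NR, each point 1 cell, black line the type level). Types next to each other in level overlap in every panel, while S-type lies wholly above M-type for *Ddit3* and wholly below it for *Atf6*. S-type against M-type was not one of the 4 comparisons made, and the share of all genes that separate these types was not computed. The *Atf5* level of T-type stands above 5 of its 6 cells because J162_16 lies at 83510.

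Against S-type, T-type had higher levels of 5 of the 10 genes by at least 2-fold: *Atf5*, *Xbp1*, *Asns*, *Ppp1r15a* and *Ppp1r15b*. None was lower by 2-fold. The study joined this fold limit to a false discovery rate from a test with cells as replicates. Only the fold limit was used here. Of all 12719 genes, 26% were higher and 32.2% lower by this limit. The median log2 ratio of the 10 genes was 0.97, against -0.07 over all genes. Cells of T-type and S-type overlapped for all 10 genes, as they did for all but 0.771% of genes. Without J162_16 the genes past the limit numbered 8, of which 6 were higher, *Cebpb* (log2 ratio 1.19) being added, and *Atf6* (-1.56) and *Ddit3* (-1.76) were lower. The shares of all genes without J162_16 alone are not given, so these counts cannot be set against all genes. The counts were again 6 higher and 2 lower when J163_18 was left out as well, a choice made after seeing the data, with 22.1% of all genes higher and 35.8% lower. Scaled to CPM, which moved the median of all genes to -0.44 with 16.7% of genes higher and 37.8% lower, 2 of the 10 genes were higher (*Atf5*, 1.88, and *Ppp1r15a*, 2.57) and *Atf6* was lower (-1.17), and the median of the 10 was 0.50.

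Against NR, T-type had higher levels of *Atf4*, *Atf5*, *Xbp1*, *Trib3* and *Ppp1r15b* and a lower level of *Atf6* by at least 2-fold, so 5 of 10 genes were higher, against 28.6% of all genes, and 1 was lower, against 32.4%. The median of the 10 genes was 1.05, against -0.05 over all genes. No gene separated the cells of the types, nor did more than 0.991% of genes. Without J162_16, 9 genes were past the limit, 7 higher, with *Asns* (1.03) and *Ppp1r15a* (1.16) added, and 2 lower, with *Ddit3* (-1.56) added. For this setting, too, the shares of all genes are not given. Leaving out J163_18 as well gave 7 higher and 2 lower, with 24.3% of all genes higher and 35.9% lower. In CPM, with the median of all genes at -0.45 and 19.3% of genes higher and 37.9% lower, 3 genes were higher (*Atf5*, *Trib3* and *Ppp1r15b*) and 2 were lower (*Atf6* and *Cebpb*), and the median of the 10 was 0.66. This comparison shares its T-type cells with the one before and its NR cells with the next 2.

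S-type and NR differed in fewer of the genes. *Trib3* was higher in S-type by at least 2-fold, 1 of 10 genes against 25.1% of all genes, and *Atf6*, *Ppp1r15a* and *Cebpb* were lower, 3 of 10 against 22.4%. The median of the 10 was -0.02, against 0.03 over all genes. The cells of S-type and NR overlapped for all 10 genes, where 0.409% of all genes did not.

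M-type had higher levels than NR of *Trib3* and *Ppp1r15b*, 2 of 10 genes against 19.8% of all genes, and lower levels of *Atf5*, *Ddit3*, *Ppp1r15a* and *Cebpb*, 4 of 10 against 28.1%. The median of the 10 was -0.64, against -0.20 over all genes. Here, too, no gene separated the cells, where 0.598% of all genes did. With cells summarised by their median, 2 genes were past the limit, both lower, where 23.9% of all genes were lower and 22.99% higher. They were *Ppp1r15a* (-2.58) and *Xbp1* (-1.19), and *Xbp1* was not past the limit by mean level (0.25).

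**Figure D2:**
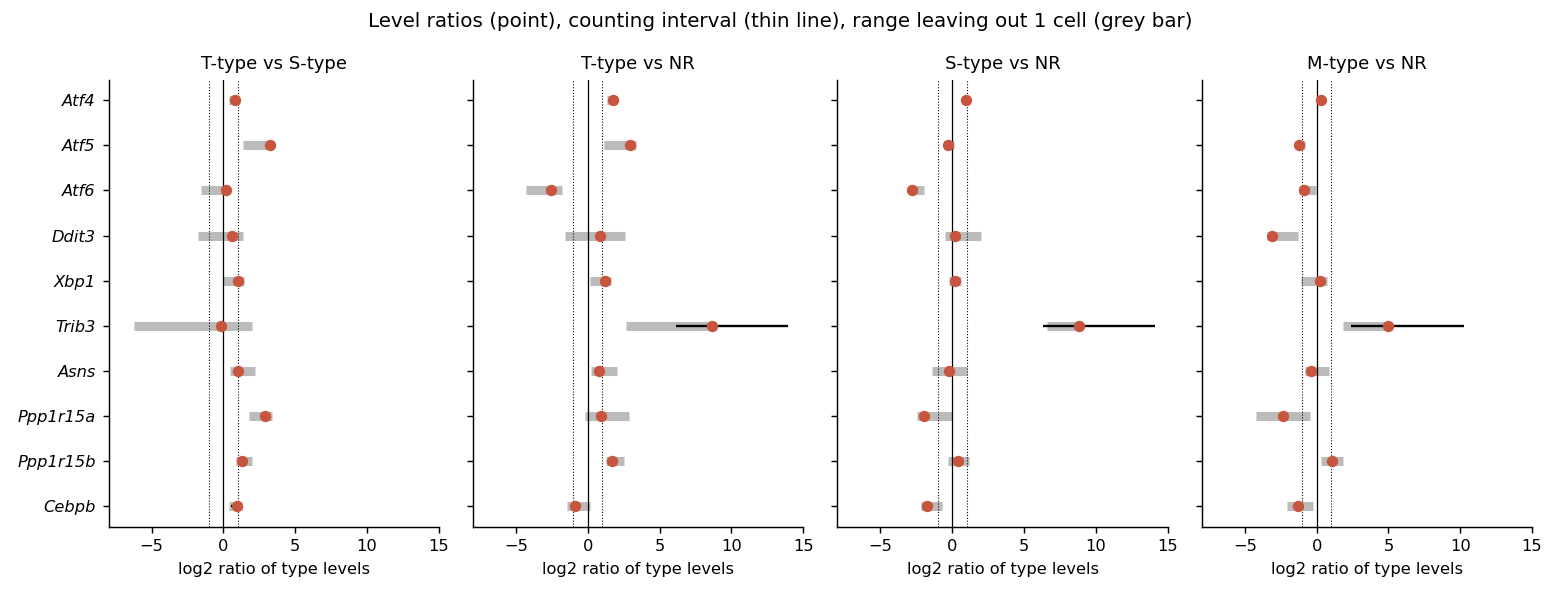
Log2 ratio of type levels for the 10 genes in the 4 comparisons (red point), with the 95% counting interval (thin black line, mostly within the point), the range when each cell is left out in turn (grey bar) and dotted lines at the 2-fold limit. *Atf5* stays above the limit in both T-type panels, and the *Trib3* bar in the first panel runs from -6.20 to 2.01.

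*Atf4*, the central factor of the integrated stress response (chr15:80255184-80257541, plus strand, GRCm38), varied least between cells of these genes, with a coefficient of variation of 0.879. In S-type, *Atf4* spanned 1849 normalized counts in its lowest cell, 2513 at the median and 5376 in its highest, and in T-type 878, 5306 and 12403. The M-type cells held 2184, 2763, 2564, 1268 and 604, and the NR cells 747, 2296, 1804, 2242 and 510. The highest T-type cell was J162_16 and the lowest was J163_18, and 4 of the 6 T-type cells lay above every M-type and NR cell. The levels were 5231 in T-type, 2931 in S-type, 1876 in M-type and 1520 in NR. The log2 ratio of T-type to NR was 1.78 (95% interval 1.75 to 1.82), and it lay between 1.32 and 2.01 with any 1 cell left out and was 0.97 in CPM, under the limit. S-type lay above NR by 0.95, just under the limit. Its cells overlapped those of NR through the S-type cell J153_6 (1849). The share of all genes that separate these types with 1 cell left out was not computed.

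*Atf5*, a related factor that acts in mitochondrial stress as well (chr7:44812256-44816658, minus strand), differed most between types among the 10 genes apart from *Trib3*, 17.8-fold from the highest type to the lowest. Its T-type cells had a lowest value of 365, a median of 4740 and a highest of 83510 normalized counts, and its S-type cells 1037, 1355 and 3713. The M-type values were 1291, 78.4, 959, 1331 and 1441, and the NR values 2851, 1507, 4638, 2068 and 749. The cell J162_16 made up 76.8% of the T-type level, and J161_9 (14349) was the next. Of the 6 T-type cells, 4 exceeded the highest S-type cell, while J163_18 lay below all S-type cells. The level was 18125 in T-type and 5048 without J162_16, against 1937 in S-type, 1020 in M-type and 2363 in NR. T-type exceeded S-type by a log2 ratio of 3.23 (3.20 to 3.25), which was 1.38 without J162_16 and 1.88 in CPM. Against NR it was 2.94 (2.91 to 2.96), with 1.10 without J162_16 and 1.44 in CPM. Both ratios stayed past 2-fold in each of the 20 and 19 alternative calculations. M-type lay below NR by a log2 ratio of -1.21, or by -0.82 without the NR cell J185_4. The cells of M-type and NR overlapped through the NR cell J187_6 (749). The share of all genes that separate these types with 1 cell left out was not computed. *Atf5* shares 82 exon bases on the opposite strand with *Nup62* (10709 reads in all), and the strand setting of the counting is not given in the sources used here.

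The reads of *Atf5* and *Atf4* were also compared within each cell, a ratio that holds no size factor and that was added after seeing the data. There were 6.73 *Atf5* reads for each *Atf4* read in J162_16, the highest of the 22 cells, 3.09 in J166_25 and 2.56 in J161_9. The other T-type cells had 0.941, 0.416 and 0.176. S-type cells spanned 0.193 to 1.44 with a median of 0.622, M-type cells 0.0284 to 2.39 with a median of 0.591, and NR cells 0.656 to 3.82 with a median of 1.47, against 1.75 in T-type. *Atf5* thus exceeded *Atf4* in 3 of 6 cells of T-type, 3 of 5 of NR, 2 of 5 of M-type and 2 of 6 of S-type, and all 4 ranges overlapped.

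**Figure D3:**
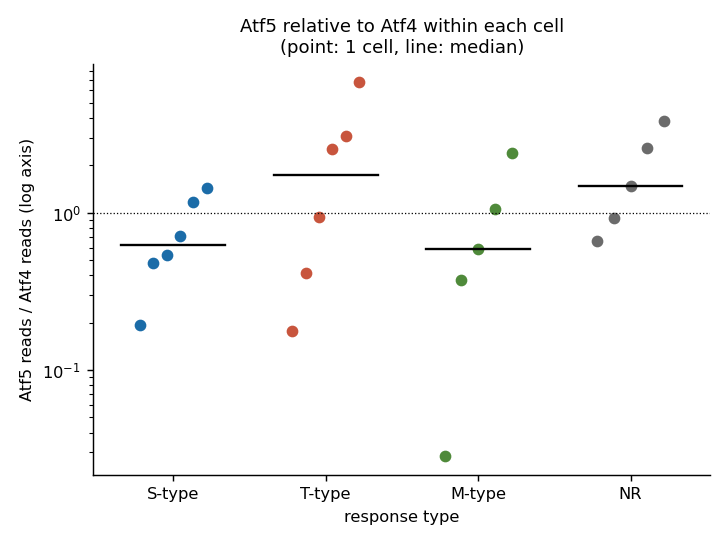
Reads of *Atf5* divided by reads of *Atf4* in each of the 22 cells (log axis), by response type, with the median as a black line and 1 as a dotted line. T-type spans 0.176 to 6.73, and the ranges of all types overlap.

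*Ddit3*, which encodes CHOP, a factor associated with prolonged ER stress (chr10:127290774-127296288, plus strand), was low in most cells. Values in S-type were 31.9 at the lowest, 43.7 at the median and 284 at the highest normalized count, and in T-type 0, 30.3 and 736. M-type cells held 2.50, 16.8, 18.3, 9.86 and 0.864, and NR cells 78.3, 316, 0, 13.8 and 3.71. A single cell carried 84.0% of the T-type level (J162_16) and 76.7% of the NR level (J183_1, with microglial markers at 56.0 CPM, whose part was not tested). All 6 S-type cells lay above all 5 M-type cells, and the share of all genes that separate these types was not computed. The levels were 146 in T-type, 94.6 in S-type, 82.3 in NR and 9.66 in M-type. M-type was below NR by a log2 ratio of -3.09 (-3.43 to -2.77) and by -1.31 without J183_1. T-type was above S-type by 0.63, but was below it by -1.76 without J162_16 and by -0.75 in CPM. *Ddit3* shares 68 exon bases on the opposite strand with *Mars* (41517 reads), and its symbol is carried by 2 gene identifiers in the annotation.

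*Cebpb*, a basic leucine zipper factor that pairs with CHOP and ATF4 and is also abundant in myeloid cells (chr2:167688915-167690418, plus strand), was highest in NR. Its NR values were 126, 10.8, 0, 67.0 and 1.85 normalized counts, and its M-type values 1.25, 8.40, 11.3, 17.6 and 45.4. S-type ran from 3.55 through a median of 10.6 to 25.0, and T-type from 0 through 9.10 to 59.1. The 2 highest NR cells, J182_2 and J186_5, were among the 3 cells with microglial marker sums above 50 CPM, and the third, J183_1, held 10.8; the part of microglial RNA was not tested. The level was 41.2 in NR, followed by T-type with 22.6, M-type with 16.8 and S-type with 11.9. S-type lay below NR by a log2 ratio of -1.79 (-2.14 to -1.46) and by -0.75 without J182_2, and M-type by -1.29 (-1.57 to -1.03) and -0.25 without it. T-type was below NR by -0.87 but above it by 0.18 without J182_2. *Cebpb* shares 312 exon bases on the opposite strand with *Tmem189* (2706 reads).

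*Atf6*, the membrane-bound sensor of the ER (chr1:170704674-170867771, minus strand), was lowest in S-type and T-type. NR cells held 2651, 542, 215, 1573 and 6016 normalized counts, and M-type cells 2233, 865, 1249, 934 and 763. S-type spanned 2.66, a median of 399 and 596, and T-type 0.648, a median of 31.7 and 1636. All 5 M-type cells exceeded all 6 S-type cells, and the share of all genes that separate these types was not computed. Of the 6 T-type cells, 4, at 52.5 or less, lay below every NR and M-type cell. The NR cell J187_6 made up 54.7% of the NR level, and J162_16 made up 75.0% of the T-type level. The levels were 2199 in NR, 1209 in M-type, 363 in T-type and 321 in S-type, and T-type was the lowest with TMM factors, in CPM and without J162_16. The log2 ratio to NR was -2.60 (-2.70 to -2.49) for T-type and -2.78 (-2.84 to -2.72) for S-type, and both stayed past 2-fold in all 19 and 18 alternative calculations. With any 1 cell left out they lay between -4.33 and -1.78 and between -3.07 and -1.95.

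*Xbp1*, whose mRNA IRE1 splices to give a factor for ER chaperone and degradation genes (chr11:5520659-5525893, plus strand), split the T-type cells. J161_9 held 3509 normalized counts, J166_25 1248 and J165_23 1082, while J162_16, J164_19 and J163_18 held 18.1, 14.6 and 5.45. S-type ranged from 0 in J151_5 through a median of 349 to 1098. M-type cells held 50.05, 1756, 528, 38.9 and 180, and NR cells 412, 282, 875, 443 and 134, so that 3 T-type cells were above and 3 below all NR cells. The levels were 980 in T-type, 511 in M-type, 486 in S-type and 429 in NR. The log2 ratio of T-type to S-type was 1.01 (0.95 to 1.07) and -0.04 without J161_9, and that of T-type to NR was 1.19 (1.13 to 1.25) and 0.14 without J161_9. A mean of log2 values, which gives the low cells more weight, put T-type below both, by -0.31 and -1.32.

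*Trib3*, a pseudokinase that ATF4 and CHOP induce (chr2:152337422-152344032, minus strand), with the motif match shown above, was detected in 6 cells. The S-type cells J155_9, J153_6 and J154_8 held 253, 29.8 and 26.3 normalized counts (323, 49 and 30 reads), and the other S-type cells held none. The T-type cell J164_19 held 272 (149 reads), the M-type cell J174_13 held 17.3 (37 reads), and the NR cell J183_1 held 1 read. The NR level was 0.113, that of M-type 3.47, that of T-type 45.3 and that of S-type 51.6, so S-type was the highest. J155_9 made up 81.9% of the S-type level, which without it was 11.2, below that of T-type. With 1 read in NR, the log2 ratios to NR were 8.83 (6.34 to 14.1) for S-type, 8.64 (6.14 to 14.0) for T-type and 4.93 (2.37 to 10.3) for M-type, and without J164_19 the T-type, and without J174_13 the M-type, had no read.

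*Asns*, asparagine synthetase, an amino acid response gene with the other C/EBP-ATF match (chr6:7675169-7693254, minus strand), was detected in 21 cells and spread widely within every type. Its S-type values were 0.888 at the lowest, 119 at the median and 913 at the highest, and its T-type values 0, 198 and 1296 normalized counts. M-type cells held 98.8, 32.2, 391, 118 and 406, and NR cells 120, 304, 925, 0.598 and 43.6. The highest S-type cell was J155_9, also the highest S-type cell in *Trib3*, while the highest cells of T-type (J166_25 and J165_23) and NR (J185_4) had no *Trib3* read. The level was 486 in T-type, 279 in NR, 239 in S-type and 209 in M-type. The log2 ratio of T-type to S-type was 1.02 (0.94 to 1.10), and it ranged from 0.44 without J166_25 to 2.22 without J155_9.

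*Ppp1r15a*, which encodes GADD34, the stress-inducible subunit that directs protein phosphatase 1 to eIF2 (chr7:45522916-45526268, minus strand), was low, with 914 reads over the 22 cells. T-type values were 7.25 at the lowest, 22.9 at the median and 352 at the highest, and S-type values 2.23, 8.36 and 29.8 normalized counts. M-type cells held 0, 0, 8.44, 37.4 and 2.16, and NR cells 9.11, 28.9, 12.9, 198 and 0.927. J164_19, also the cell with the most *Trib3*, was the highest of all cells, and J186_5, with microglial markers at 50.1 CPM, carried 79.2% of the NR level, the part of those markers not being tested. The level was 94.2 in T-type, 49.97 in NR, 12.6 in S-type and 9.59 in M-type. The log2 ratio of T-type to S-type was 2.90 (2.58 to 3.24), with 1.76 without J164_19 and 2.57 in CPM, and it stayed past 2-fold in all 20 alternative calculations. S-type and M-type lay below NR by -1.99 (-2.31 to -1.68) and -2.38 (-2.72 to -2.06), but by -0.04 and -0.44 without J186_5.

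*Ppp1r15b*, the constitutive counterpart CReP (chr1:133131143-133139783, plus strand), was the more abundant subunit, at 207 against 14.5 normalized counts per kilobase. T-type ran from 0 in J162_16 through a median of 1549 to 4424 in J163_18, and S-type from 50.6 through 502 to 2313. M-type cells held 114, 3238, 690, 2032 and 63.5, and NR cells 1598, 463, 516, 362 and 27.8. The 5 T-type cells other than J162_16 lay at 959 or above, higher than all NR cells but J182_2. The level was 1937 in T-type, 1227 in M-type, 783 in S-type and 593 in NR. T-type lay above S-type by 1.31 (1.26 to 1.36) and above NR by 1.71 (1.65 to 1.76), and without J163_18, whose library was the smallest, 0.88 and 1.28. M-type was above NR by 1.05 (1.00 to 1.10) and by 0.29 without J173_25.

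**Figure D4:**
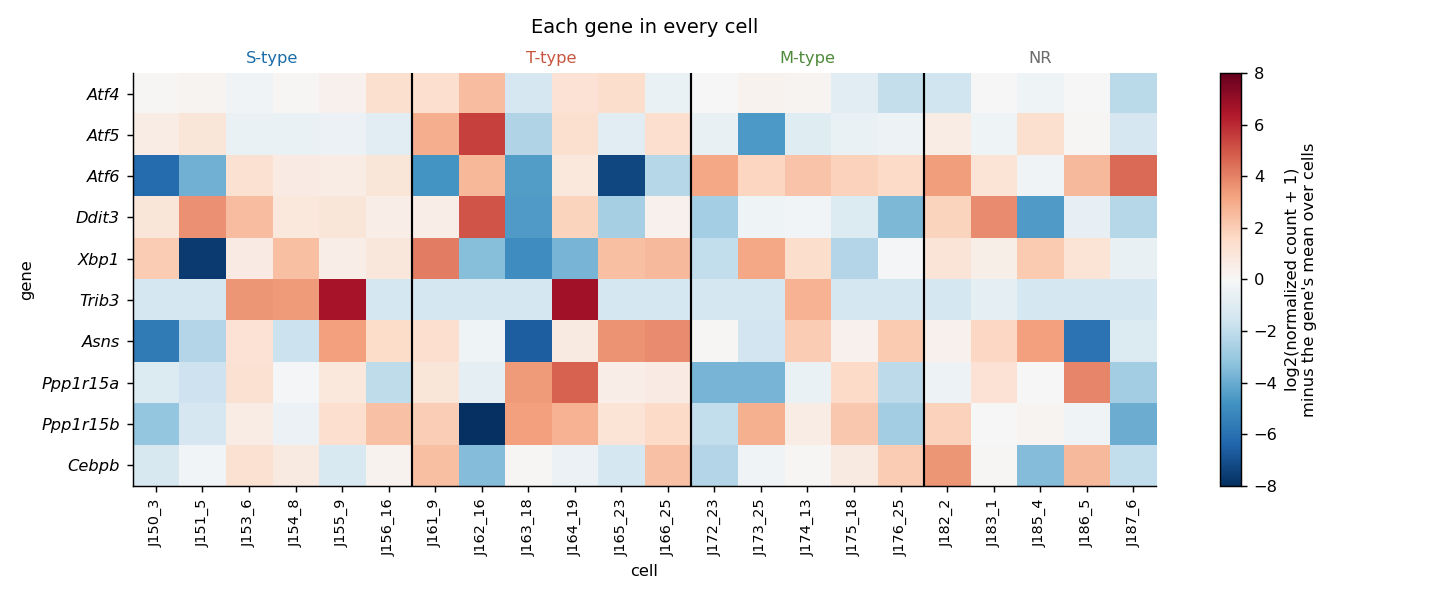
Log2 of the normalized count plus 1 of the 10 genes in the 22 cells, each gene centred on its mean over cells (red above, blue below), with black lines between response types. High values of different genes fall in different cells, for example *Trib3* in J155_9 and J164_19 and *Atf5* and *Ddit3* in J162_16.

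The 10 genes did not peak in the same cells. By normalized counts, J161_9 was among the 3 highest cells for 4 genes, J162_16, J164_19 and J166_25 for 3 each, and 6 cells for none. Of all genes tested, these 4 cells were among the 3 highest for 14.8%, 16.6%, 16.2% and 12.5%. In CPM the order changed, with J164_19 at 4 genes, J166_25 at 3, and J161_9 and J162_16 at 2 each. The shares of all genes were then 16.8%, 13.9%, 8.32% and 7.15%. By normalized counts, J162_16 was the highest cell for *Atf4*, *Atf5* and *Ddit3*, and it had no read of *Ppp1r15b*, *Trib3* or *Cebpb*. In CPM, J162_16 was the highest for *Atf5* (1833) alone of these 3. J165_23 was then the highest for *Atf4* (476) and J183_1 for *Ddit3* (31.3). Over the 22 cells, which share scaling and amplification, the highest Pearson correlations of log2(normalized count + 1) were 0.48 for *Atf4* and *Ddit3*, 0.47 for *Ppp1r15b* and *Cebpb* and 0.46 for *Atf5* and *Ddit3*, and the lowest was -0.50 for *Atf5* and *Ppp1r15b*. Without J162_16 these were 0.35, 0.28, 0.27 and -0.11.

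Other genes tracked each of the 10 more closely over the 22 cells than they tracked each other, as picking the highest of 9363 genes allows. The closest were *Tpm3* (Pearson r 0.78) and *Ywhae* (0.78) for *Atf4*, *Eif5b* (0.84) and *Lrrc58* (0.83) for *Atf5*, *Eprs* (0.79) and *Cmas* (0.77) for *Atf6*, *Tgif1* (0.77) and *Oxsr1* (0.74) for *Ddit3*, and *1200011I18Rik* and *Serpinb6a* (both 0.73) for *Xbp1*. They were *Pqlc3* (0.77) and *Phldb2* (0.73) for *Asns*, *Tmem238* (0.73) and *Gm10638* (0.72) for *Ppp1r15a*, *Sertad2* (0.88) and *Fdps* (0.86) for *Ppp1r15b*, and *Zfp617* (0.75) and *Ovca2* (0.73) for *Cebpb*. *Trib3* had reads in too few cells. Leaving out 1 cell brought these values down to between 0.56 and 0.74 at the lowest.

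Of the other genes of the pathway, those known as ATF4 targets (amino acid synthesis and transport, one-carbon metabolism and stress effectors) were more often higher in S-type than in NR. Of 22 such genes that passed the filter of 25, 12 were at least 2-fold higher and 3 lower in S-type, against 25.1% and 22.4% of all genes, and their median log2 ratio was 1.11, against 0.03. The count of higher genes lay between 11 and 16 with any 1 cell left out and was 11 or 12 under TMM, mean CPM and pooled CPM. *Gpt2*, *Psat1* and *Slc1a4*, the most abundant of the list and enzymes of alanine and serine synthesis and a neutral amino acid carrier, were under the limit at 0.97, 0.83 and -0.86. The cells of S-type and NR overlapped for all but 1 of the 22 genes, where those of 0.409% of all genes did not overlap. Named after their values were seen, *Mthfd2*, the mitochondrial one-carbon enzyme, had levels of 656 and 8.83 normalized counts in S-type and NR, and *Shmt2*, the mitochondrial serine hydroxymethyltransferase, 49.3 and 1.40, the NR cells holding 77 and 11 reads. T-type levels were 772 for *Mthfd2*, above S-type, and 37.1 for *Shmt2*, and M-type levels were 135 and 2.56. *Shmt2* was the 1 gene whose S-type and NR cells did not overlap, with a lowest S-type cell of 4.45 and a highest NR cell of 3.04.

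Many of these target genes were high in J155_9, the S-type cell with the most *Trib3* and *Asns*, a cell singled out after its values were seen. J155_9 was among the 3 highest of the 22 cells for 11 of the 22 targets, or 50%, while it was among the 3 highest for 10.5% of all genes tested. In CPM the shares were 63.6% and 14.9%. It was the highest cell for *Slc7a1*, *Vldlr*, *Phgdh*, *Eif4ebp1*, *Chac1* and *Shmt2*, with *Chac1*, a glutathione-degrading enzyme, at 418 normalized counts against 76.2 in the next cell. J155_9 held 2905 normalized counts of *Atf4*, within the range of the other S-type cells, and 43.9 of *Ddit3*. It also had the highest sum of mural and fibroblast markers, 7410 CPM, whose part in this was not tested. Of the 12 genes higher in S-type, 7 had J155_9 as their highest S-type cell, and 9 stayed past the limit when the highest S-type cell of each was left out. The T-type cell J165_23 followed by normalized counts, with 7 of 22 targets, or 31.8%, against 14.7% of all genes tested.

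**Figure D5:**
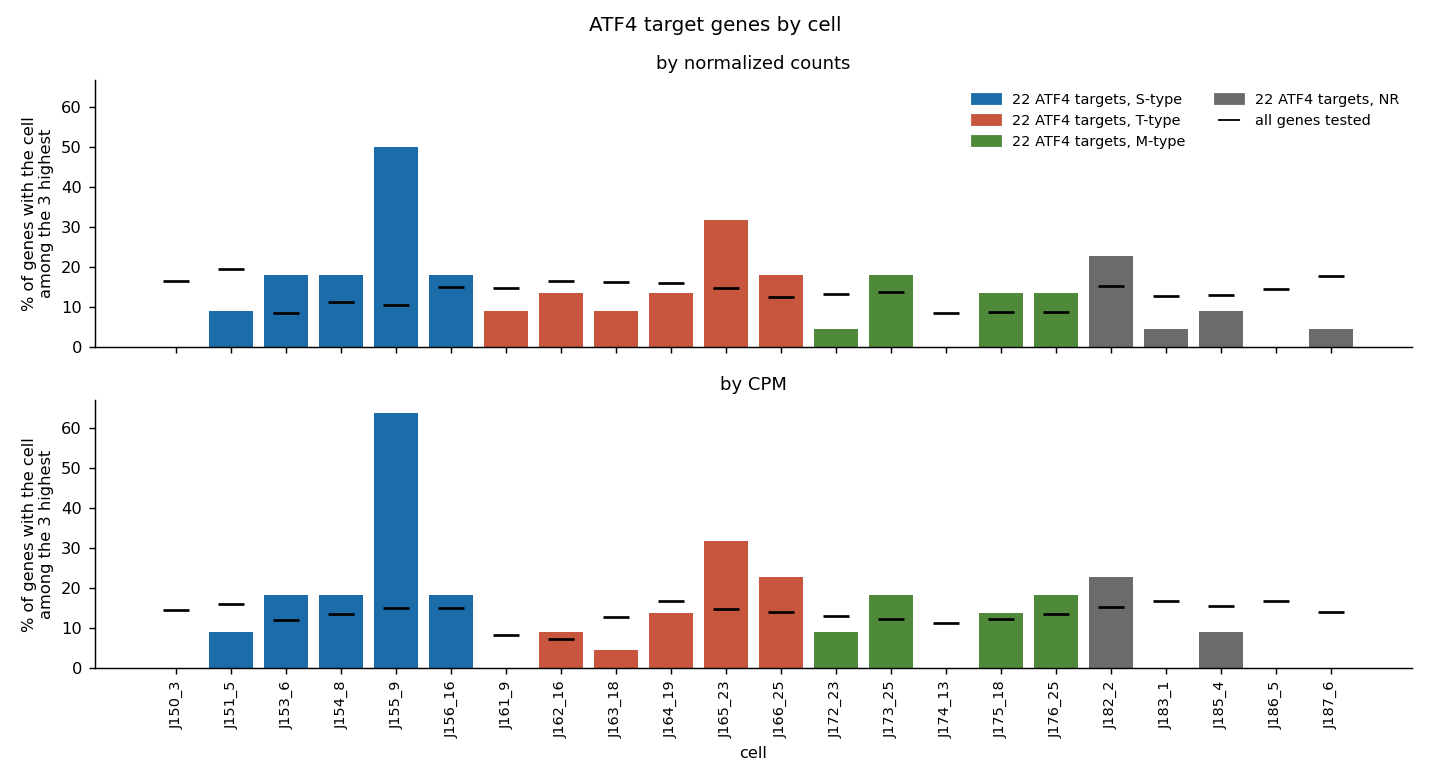
Share of the 22 ATF4 target genes for which each cell was among the 3 highest of the 22 cells (bars, in %, coloured by response type), beside the same share over all genes tested (black marks), by normalized counts above and by CPM below. J155_9 stands at 50% and 63.6%, against 10.5% and 14.9% of all genes.

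For T-type against S-type, 6 of the 22 ATF4 targets were higher and 7 lower, near the 26% and 32.2% of all genes, with a median of -0.29 against -0.07. For T-type against NR, 9 were higher and 5 lower, against 28.6% and 32.4%, with a median of 0.59 against -0.05. For M-type against NR, 6 were higher and 4 lower, against 19.8% and 28.1%, with a median of 0.41 against -0.20, and 11 were higher with the median over cells, where 22.99% of all genes were. *Gpt2* was highest in T-type at 13961 normalized counts, 98.8% of it in J162_16, and without that cell its log2 ratio of T-type to NR went from 5.99 to -0.17.

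The 12 eIF2 kinases and subunits of eIF2 and its exchange factor eIF2B were higher in T-type by at least 2-fold for 6 genes against S-type, where 26% of all genes were, and lower for 2, where 32.2% were, with a median of 1.00 against -0.07. Against NR, 7 were higher and 3 lower, where 28.6% and 32.4% of all genes were, with a median of 1.67 against -0.05. *Eif2s2*, *Eif2s1* and *Eif2s3x*, the 3 subunits of eIF2 and the most abundant of the list, had log2 ratios of T-type to NR of 3.43, 2.28 and 4.30, and J162_16 carried 72.6% of *Eif2s2* and 86.6% of *Eif2s3x* in T-type. Without J162_16 the 2 ratios were 1.82 and 1.66. With both small-factor cells left out the list stood against NR at 4 higher and 5 lower, where 24.3% and 35.9% of all genes were. Its median was then 0.38, against -0.24 over all genes. The median against S-type turned negative with these cells left out (-0.17, with 4 higher and 4 lower), with the median over cells (-0.29, 3 and 5), with the mean of log2 values (-0.54, 3 and 6) and with pooled CPM (-0.06, 4 and 3), while that of all genes was -0.25, -0.66, -1.09 and -0.55. S-type had 2 higher and 1 lower than NR, where 25.1% and 22.4% of all genes were, and M-type 1 and 3, where 19.8% and 28.1% were.

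The 10 sensors and processing enzymes of the unfolded protein response were lower in T-type than in S-type for 6 genes and higher for 1, where 32.2% and 26% of all genes were, with a median of -1.50 against -0.07. Against NR, 6 were lower and 0 higher, where 32.4% and 28.6% of all genes were, with a median of -1.55 against -0.05. The most abundant were *Nfe2l2*, an oxidative stress factor and substrate of the kinase PERK, *D10Wsu52e* (now *Rtcb*), the ligase that joins spliced *Xbp1*, and *Creb3*, an ER-bound factor cut like ATF6. Their log2 ratios of T-type to S-type were 0.86, -1.47 and -1.71, and those to NR 0.28, -1.16 and -0.21. The counts of lower genes lay between 4 and 8 with any 1 cell left out. With the median over cells, 4 were lower than in NR, where 40.0% of all genes were, with a median of -0.85 against -0.37. With the mean of log2 values, 6 were lower, where 48.5% of all genes were, with a median of -1.26 against -0.93. Against S-type these summaries gave 6 and 7 lower, where 45.1% and 51.9% of all genes were. Their medians were -1.99 and -1.97, against -0.66 and -1.09 over all genes. Against NR, S-type had 3 higher and 1 lower (all genes 25.1% and 22.4%) and M-type 4 and 4 (19.8% and 28.1%).

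Of the 18 XBP1 and ATF6 targets of the ER, 3 were higher and 6 lower in T-type than in S-type, where 26% and 32.2% of all genes were, and 4 and 4 than in NR, where 28.6% and 32.4% were, with medians of -0.02 and 0.03. In S-type, 4 were higher than in NR and 0 lower, where 25.1% and 22.4% of all genes were, with a median of 0.12 against 0.03. In M-type, 1 was higher than in NR and 4 lower, where 19.8% and 28.1% were, with a median of -0.53 against -0.20. *Hspa5*, the chaperone BiP, had log2 ratios to NR of -0.18 in T-type, -0.61 in S-type and -1.26 in M-type, *Hsp90b1* of 0.37, 0.20 and -0.24, and *Dnajb9*, an ER co-chaperone, of 1.28, -0.49 and -0.30.

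Among 9 mitochondrial stress genes, 2 were higher and 1 lower in T-type against S-type (all genes 26% and 32.2%, list median 0.28) and likewise against NR (28.6% and 32.4%, 0.37). S-type had 0 higher and 1 lower than NR (25.1% and 22.4%, 0.47), and M-type 1 and 1 (19.8% and 28.1%, 0.04). *Hspa9*, *Hspe1* and *Yme1l1*, the most abundant of these, had T-type to NR ratios of -0.62, 0.45 and 4.65, the last falling to 0.79 without J162_16. Of 14 other C/EBP and ATF/CREB factors, 4 were higher and 3 lower in T-type against S-type (all genes 26% and 32.2%, list median 0.31) and 6 and 4 against NR (28.6% and 32.4%, 0.25, or -0.24 with both small-factor cells left out). S-type had 2 higher and 2 lower than NR (25.1% and 22.4%, 0.21), and M-type 3 and 2 (19.8% and 28.1%, 0.10). *Atf2*, *Jun* and *Crem*, the most abundant, had log2 ratios of T-type to NR of 3.10, -0.43 and 1.14, with 1.02 for *Atf2* without J161_9 and -2.14 for *Jun* and -0.15 for *Crem* without J163_18.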

How the data were processed

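Per the labels and the study's methods, RNA of each of 22 single cells was amplified, sequenced with a stranded mRNA kit, aligned to GRCm38 (mm10) with STAR and counted per gene. The labels name HTSeq and the methods VERSE, and versions, annotation release and strand setting are not given in the sources used here. The authors deposited raw counts, reads per gene symbol and cell, with no normalization, and all 22 columns were used. The table's own response type matched the label in 22 of 22 cells.

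Scaling used median-of-ratios size factors from 3670 genes that all cells detected (Python 3.11.15, NumPy 2.4.6, pandas 2.3.3, SciPy 1.17.1, matplotlib 3.10.9). The study tested cells as replicates. Here each cell is a sample, no label names its pup or culture, and a type is 1 sample without a test. A type level is the mean over its cells. Intervals (95%) are exact Poisson for levels and exact binomial (Clopper-Pearson) for the split of the pooled reads in ratios. A type without reads was set to 3 reads. The functions were checked on simulated data. Positions and exon lengths came from GENCODE vM21. TMM factors (edgeR 4.0.16 in R 4.3.3), CPM, median, log2 mean, thinning, pseudocount, filter and fold limit were alternatives, and each cell was left out in turn.

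The 10 genes and all lists were chosen with earlier results of these data known. Besides the 10 genes, the text names at most 3 genes of each list, those of highest mean level, the 2 genes closest to each of the 10 (Pearson r, reads in at least 15 cells, mean level of at least 10), overlapping genes, and others marked as named after their values were seen.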

Additional observations from a re-analysis of the deposited data

Results flagged for a closer look

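Within each response type, the highest and lowest cell of each gene were compared with the others by Dixon's test at its 95% critical value. Of 40 sets of cells, 15 held a cell that stood apart, always on the high side. The test assumes normally distributed values, while these were normalized counts without logs, skewed to the high side. Its rate of 1 in 20 does not apply to them, so the 15 sets cannot be read as an excess over chance.

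In T-type, J162_16 stood apart for *Atf5* (83510 normalized counts), *Atf6* (1636) and *Ddit3* (736), J161_9 for *Xbp1* (3509) and J164_19 for *Trib3* (272). In S-type, the cells were J156_16 for *Atf4* (5376), J151_5 for *Ddit3* (284) and J155_9 for *Trib3* (253) and *Asns* (913). In M-type, they were J173_25 for *Xbp1* (1756), J174_13 for *Trib3* (17.3) and J175_18 for *Ppp1r15a* (37.4). In NR, they were J183_1 for *Ddit3* (316) and *Trib3* (0.567, a single read) and J186_5 for *Ppp1r15a* (198). In the T-type, M-type and NR sets of *Trib3*, the marked cell was the only one with a read, so that the test was bound to mark it.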

How the results depend on the processing

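Of the 40 log2 ratios of the 10 genes, 21 were at least 2-fold. Over the alternatives these gave 388 values, of which 327 kept direction and limit, 56 kept direction under the limit and 5 reversed. *Xbp1* reversed for T-type against S-type with a mean of log2 values (-0.31) and without J161_9 (-0.037; -0.037 to 1.43 leaving out 1 cell), and for T-type against NR with a mean of log2 values (-1.32). With the median over cells, M-type against NR reversed for *Trib3* (-0.32, a ratio of floors, as both medians are 0) and *Cebpb* (0.062). For T-type against S-type the 5 genes past the limit became 3 with mean CPM, 3 after thinning, 2 at a 4-fold limit and 8 with J162_16 and J163_18 both left out, and 4 to 8 leaving out 1 cell, with 8 without J162_16. For T-type against NR the 6 became 3 at 4-fold, and 6 to 9 leaving out 1 cell. For S-type against NR the 4 became 2 at 4-fold, and 4 to 6. For M-type against NR the 6 became 2 with the median (*Ppp1r15a*, and *Xbp1*, which was not among the 6), 3 with the mean of log2 values and 3 at 4-fold, and 4 to 6. Leaving out 1 cell, genes whose cells did not overlap numbered 0 to 0 in both T-type comparisons and 0 to 1 in the others (*Atf4* in S-type without J153_6, *Atf5* in M-type without J187_6). The share of all genes that do not overlap was not computed for these settings. Shares of all genes are not given for the counts that leave out 1 cell. The causes were not tested. No paired analysis was possible because the labels tie no cells of different types together. Depth limits the genes with few reads: *Trib3* (589 in all), *Cebpb* (752) and *Ppp1r15a* (914).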
